A study of Mus musculus with 12 samples.

Results

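Nr3c1 encodes the glucocorticoid receptor, and Fkbp5, Tsc22d3, Sgk1, Ddit4, Lpin1, Klf9 and Errfi1 are known to respond to it. These 8 genes, chosen with earlier results of these data known, were taken from the liver expression table by their symbols. They are 8 of its 21004 genes. All 8 were among the 10786 genes that reached at least 1 FPKM in at least 3 libraries and so entered the tests. FPKM, fragments scaled by transcript length and library size, is a value per length, so levels of different genes can be set side by side.

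Livers came from ICR mice, an outbred stock, aged 8 weeks, and total RNA was sequenced in 12 libraries. The 4 groups of 3 libraries were control, with no further description, busulfan alone, L.J. alone at 10 mg/kg, and busulfan together with L.J. at 10 mg/kg. Busulfan, an alkylating drug, damages DNA and is toxic to blood-forming and germ cells. The meaning of L.J. is not given in the sources used here, and the design text of the series names FMT in livers harmed by busulfan without tying it to a group. The labels give neither the busulfan dose, nor the sex of the mice, nor the time of day or the interval after treatment at which the livers were taken. They also do not say whether the 3 libraries of a group are separate animals, so every p-value measures the spread between these libraries, which may be technical. In a piece of whole liver, fewer cells of a type and less RNA per cell cannot be told apart.

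Glucocorticoids, corticosterone in mice, are adrenal steroids that follow a daily rhythm and stress. Hormone binding frees the receptor from a chaperone complex of heat shock proteins and FKBP co-chaperones in the cytoplasm. The receptor then enters the nucleus and binds response elements built from an inverted repeat of the hexamer AGAACA and TGTTCT around a spacer. In liver it drives glucose production, amino acid breakdown and lipid handling and restrains inflammation, and several of its targets are also controlled by the clock, by fasting through cAMP, and by stress.

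The libraries of the L.J. group were not alike, and this touches every comparison with that group. Libraries of the same group correlated across genes at a Pearson r between 0.943 and 0.989, and the lowest was between L.J. replicates 2 and 3. Male-biased liver genes (15 genes) summed to 4617, 99690 and 487 FPKM across the L.J. replicates, numbered 1 to 3, while the other 9 libraries lay between 33210 and 153800 FPKM. Neutrophil markers (7 genes) summed to 147, 13.2 and 82.0 FPKM across the L.J. replicates, numbered 1 to 3, against 7.35 to 14.4 FPKM in the other groups. Hepatocyte markers were abundant in all 12 libraries, at 35240 to 57850 FPKM summed over 6 genes. L.J. replicates 1 and 3 are called the divergent L.J. libraries here, and values without them or without L.J. replicate 2 are given where they change a result.

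The genes differed in level and in spread. Errfi1 had the highest mean over the 12 libraries at 356 FPKM and ranked 173 among the genes tested, followed by Tsc22d3 at 47.7, Klf9 at 21.8, Lpin1 at 20.3, Nr3c1 at 15.3, Sgk1 at 9.59, Fkbp5 at 9.09 and Ddit4 at 3.93 FPKM. Lpin1 varied most, by 13.5 times from its lowest to its highest library, then Sgk1 by 6.71 times, Ddit4 by 5.34 times and Fkbp5 by 5.08 times. Nr3c1 varied least, by 1.51 times. The standard deviation of log2 values over the 12 libraries of Nr3c1 stood at percentile 22.3 of all genes tested, that of Klf9 at 76.3, and those of the other 6 members between 90.0 and 98.3.

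**Figure D1:**
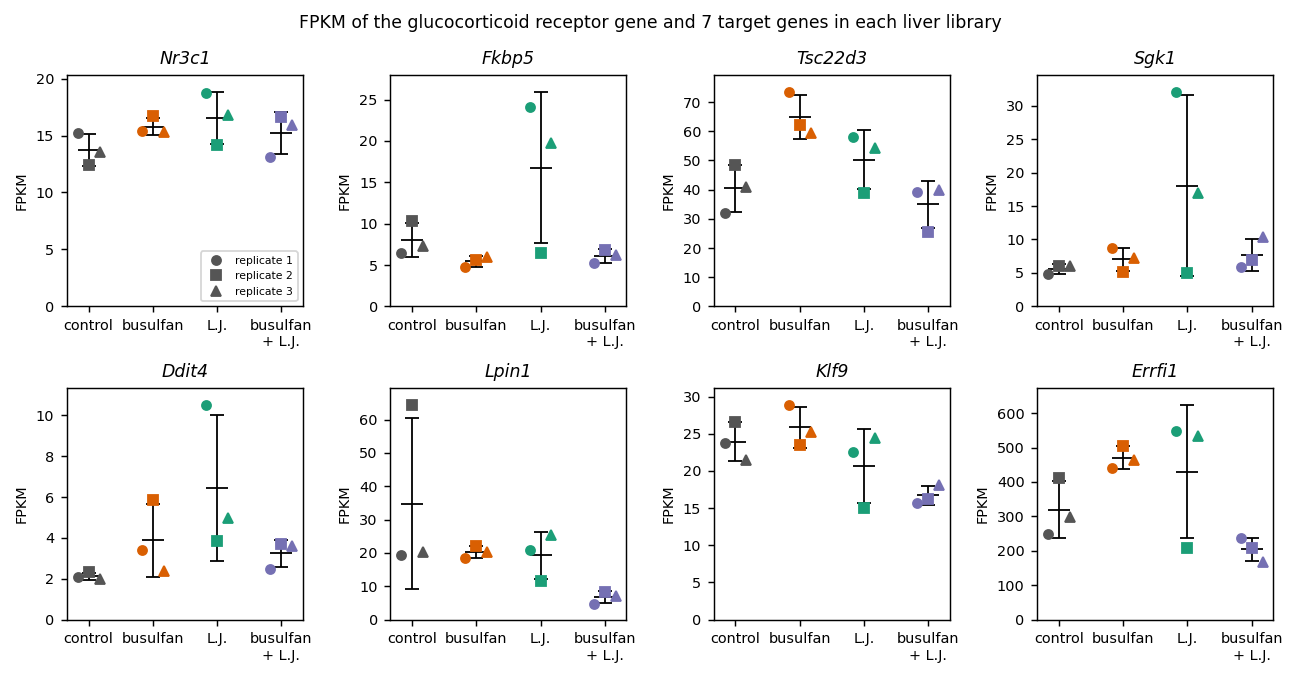
FPKM of each gene (vertical axis, linear, starting at 0) by group (horizontal axis), with marker shapes for the replicate number and bars for the group mean ± SD of 3 libraries. Fkbp5 and Sgk1 stand high in L.J. replicates 1 and 3 alone, Lpin1 is lowest with busulfan plus L.J., and Nr3c1 stays between 12.4 and 18.7 FPKM.

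Nr3c1 (gene ID 14815, chromosome 18), the receptor gene itself, held a narrow range in all groups. It read 15.2, 12.4 and 13.6 FPKM in the control libraries, 15.4, 16.7 and 15.3 with busulfan, 18.7, 14.1 and 16.8 with L.J., and 13.1, 16.6 and 15.9 with both. The busulfan libraries all lay above the control libraries, by a narrow margin, and all other pairs of groups overlapped. Group means were 13.7 ± 1.41, 15.8 ± 0.774, 16.55 ± 2.30 and 15.2 ± 1.85 FPKM (SD, n = 3), in the order control, busulfan, L.J. and both, and the L.J., busulfan and combined groups did not differ from each other beyond their spread. The log2 fold change of busulfan against control was 0.19 with an SE of 0.13 and an adjusted p of 1 (limma, Benjamini-Hochberg over all genes tested).

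Fkbp5 (gene ID 14229, chr17:28398753-28486149 on GRCm38.p6), an FKBP co-chaperone that lowers the hormone affinity of the receptor and is itself induced by it, was high in the divergent L.J. libraries. Its level was 6.46, 10.3 and 7.31 FPKM in control, 4.74, 5.66 and 5.92 with busulfan, 24.1, 6.50 and 19.8 with L.J., and 5.2, 6.78 and 6.25 with both treatments. L.J. replicates 1 and 3 stood above every other library, and L.J. replicate 2 was within the control range. All 3 busulfan libraries lay under all 3 control libraries.

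Fkbp5 means were 8.04 ± 2.045 FPKM in control, 5.44 ± 0.620 with busulfan, 16.8 ± 9.16 with L.J. and 6.08 ± 0.804 with both (SD, n = 3). Both groups that had received busulfan were the lowest, and they did not differ from each other beyond their spread. The log2 fold change was 0.82 (SE 0.35, adjusted p 0.188, limma) for L.J. against control, and -1.16 (SE 0.35, adjusted p 0.225) for both treatments against L.J. For busulfan against control it was -0.47 (SE 0.35, adjusted p 1). No Fkbp5 difference passed the threshold of 0.05 with all libraries.

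Without L.J. replicate 2, Fkbp5 passed in limma at 1.36 (adjusted p 0.00148) for L.J. against control, among 1796 genes. For both against L.J. it passed at -1.70 (adjusted p 0.000395), among 1163 genes. Without both divergent L.J. libraries the L.J. difference turned to -0.25 (adjusted p 0.920), where the L.J. group is a lone library assumed to vary like the other groups. The direction of Fkbp5 under L.J. therefore depends on which L.J. libraries enter.

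Sgk1 (gene ID 20393, chr10:21882184-21999903), a kinase that promotes sodium transport and cell survival and is induced by glucocorticoids and by stress, is shown with its promoter because that window holds the complete response element. RefSeq promoter windows on GRCm38.p6, which has the coordinates of mm10, run from 250 bases before to 50 bases after a transcript's start. They were searched on both strands for the palindrome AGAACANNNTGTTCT. Of 32851 windows in the mouse genome, 3 (0.00913%) hold it, and 1 of these is 1 of the 6 windows of Sgk1. The palindrome, in capitals, begins at position -189 from that start; the plus strand of chr10:21993640-21993939 is printed.
Sgk1 promoter: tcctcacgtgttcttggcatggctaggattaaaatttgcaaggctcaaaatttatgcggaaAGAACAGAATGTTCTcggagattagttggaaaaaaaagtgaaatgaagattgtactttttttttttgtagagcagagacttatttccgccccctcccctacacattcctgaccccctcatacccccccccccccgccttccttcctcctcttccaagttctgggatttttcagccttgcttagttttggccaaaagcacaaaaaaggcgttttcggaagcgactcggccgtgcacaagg

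Sgk1 read 4.78, 5.99 and 5.98 FPKM in control, 8.67, 5.16 and 7.21 with busulfan, 32.1, 5.03 and 16.97 with L.J., and 5.82, 6.90 and 10.4 with both. Again L.J. replicates 1 and 3 were the highest of the 12 libraries and L.J. replicate 2 was among the lowest. Means were 5.58 ± 0.696, 7.01 ± 1.76, 18.0 ± 13.6 and 7.72 ± 2.41 FPKM (SD, n = 3), and no pair of groups was free of overlap. The control and busulfan means, and the busulfan and combined means, did not differ beyond their spread.

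For L.J. against control, Sgk1 had a log2 fold change of 1.22 (SE 0.46, adjusted p 0.152, limma), and for both treatments against L.J. it was -0.85 (SE 0.46, adjusted p 0.429). Without L.J. replicate 2 both passed, at 1.895 (adjusted p 0.00256) among 1796 genes and -1.52 (adjusted p 0.00848) among 1163 genes. Without the divergent libraries L.J. against control turned to -0.12 (adjusted p 0.971). Sgk1 and Fkbp5 thus share the dependence on the same libraries.

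Ddit4 (gene ID 74747, chr10:59949675-59951770), also called Redd1, an inhibitor of mTORC1 signalling induced by glucocorticoids, low oxygen and DNA damage, was lowest in control. It read 2.09, 2.31 and 1.97 FPKM in control, 3.4, 5.88 and 2.38 with busulfan, 10.5, 3.86 and 4.96 with L.J., and 2.5, 3.69 and 3.59 with both. Every treated library lay above every control library, and every L.J. library, replicate 2 included, lay above every library of the combined group. The busulfan libraries overlapped both L.J. groups.

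Ddit4 means were 2.12 ± 0.172 FPKM in control, 3.26 ± 0.660 with both, 3.89 ± 1.80 with busulfan and 6.44 ± 3.565 with L.J. (SD, n = 3). Neighbours above control in this order did not differ beyond their spread. The log2 fold change was 1.15 (SE 0.31, adjusted p 0.0812, limma) for L.J. against control, 0.58 (SE 0.31, adjusted p 1) for busulfan and 0.44 (SE 0.31, adjusted p 0.865) for both treatments against control. It was -0.72 (SE 0.31, adjusted p 0.335) for both against L.J.

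Ddit4 is listed at low FPKM, where the added pseudocount of 1 shrinks a fold. The ratio of plain means for L.J. over control was 3.03, against 2.22 on the log2(FPKM + 1) scale. The first averages plain values and so weighs the high L.J. replicate 1 more, so the gap is not from the pseudocount alone. Ddit4 passed without L.J. replicate 2, at 1.41 (adjusted p 0.0143, limma), among 1796 genes. Without L.J. replicate 1 its difference from control was 0.79 and did not pass.

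Tsc22d3 (gene ID 14605, chrX:140539528-140600522), the glucocorticoid-induced leucine zipper GILZ, which restrains NF-kappaB and AP-1 signalling, was highest with busulfan and lowest with both treatments. Of its 3 RefSeq windows, 1 holds the hexamer TGTTCT, an arm of the palindrome, which on either strand is in 19.0% of all windows; none holds the complete element. That window, the minus strand of chrX:140600473-140600772, is printed to set a lone arm beside the complete element of Sgk1, with the hexamer in capitals at position -185.
Tsc22d3 promoter: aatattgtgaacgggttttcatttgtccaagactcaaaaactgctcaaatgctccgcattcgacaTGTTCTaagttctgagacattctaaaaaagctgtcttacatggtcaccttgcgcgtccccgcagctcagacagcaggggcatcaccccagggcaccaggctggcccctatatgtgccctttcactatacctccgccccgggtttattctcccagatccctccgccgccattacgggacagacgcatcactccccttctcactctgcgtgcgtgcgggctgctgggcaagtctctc

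Tsc22d3 read 32.1, 48.4 and 40.7 FPKM in control, 73.6, 62.0 and 59.5 with busulfan, 58, 38.7 and 54.1 with L.J., and 39.4, 25.6 and 39.8 with both. All 3 busulfan libraries lay above all 9 others, and the control and combined groups overlapped. Means were 40.4 ± 8.12, 65.0 ± 7.515, 50.3 ± 10.2 and 34.9 ± 8.05 FPKM (SD, n = 3), so control and L.J. did not differ beyond their spread, nor did control and both.

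Busulfan against control gave Tsc22d3 a log2 fold change of 0.69 (SE 0.21, unadjusted p 0.00755, adjusted p 1, limma), which ranked 17 by p among the 10786 genes. For both treatments against busulfan it was -0.90 (SE 0.21, unadjusted p 0.00126, adjusted p 0.631) and ranked 20. These comparisons share the busulfan libraries, so they are not separate evidence. Neither passed the threshold, and no library left out in turn made either pass. For both against L.J. the value was -0.52 (SE 0.21, adjusted p 0.319).

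Errfi1 (gene ID 74155, chr4:150853796-150868889), also called Mig6, a feedback inhibitor of the EGF receptor, had the same order at a higher level. Of its 2 windows, neither holds the palindrome or the TGTTCT arm, and 1 holds the cAMP response element TGACGTCA, present in 1.79% of all windows. It is printed as the plus strand of chr4:150854820-150855119 because Errfi1 and Tsc22d3 were correlated over the 12 libraries. Their windows shared none of these exact motifs, and inexact motifs or sequence outside the windows were not searched. The element, in capitals, is at position -51.
Errfi1 promoter: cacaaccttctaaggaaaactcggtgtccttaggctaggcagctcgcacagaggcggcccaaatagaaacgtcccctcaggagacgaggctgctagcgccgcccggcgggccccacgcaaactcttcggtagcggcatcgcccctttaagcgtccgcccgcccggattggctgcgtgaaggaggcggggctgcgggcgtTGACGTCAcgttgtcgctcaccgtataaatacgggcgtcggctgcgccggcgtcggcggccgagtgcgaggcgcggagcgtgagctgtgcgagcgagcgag

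Errfi1 read 250.02, 411 and 298 FPKM in control, 439.6, 505 and 464 with busulfan, 549, 207 and 535 with L.J., and 236, 208 and 168 with both. The combined group lay below every control and every busulfan library, and the busulfan group lay above every control library. L.J. replicate 2, at 207 FPKM, sat with the combined group, and L.J. replicates 1 and 3 were the highest of all. Means were 319.6 ± 82.7, 469.8 ± 33.3, 430.2 ± 193 and 204 ± 34.1 FPKM (SD, n = 3).

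The log2 fold change of Errfi1 was 0.58 (SE 0.33, adjusted p 1, limma) for busulfan against control, -1.21 (SE 0.33, adjusted p 0.7475) for both against busulfan, -0.96 (SE 0.33, adjusted p 0.260) for both against L.J., -0.63 (SE 0.33, adjusted p 0.754) for both against control and 0.33 (SE 0.33, adjusted p 0.558) for L.J. against control. None passed. When L.J. replicate 2 was left out, both against L.J. passed at -1.42 (adjusted p 0.00231), among 1163 genes. L.J. against control then passed at 0.79 (adjusted p 0.0304), among 1796 genes. Without both divergent L.J. libraries, which leaves a lone L.J. library, both against L.J. was -0.036. That library, at 207 FPKM, lay below every control library, which ran from 250 to 411 FPKM.

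Lpin1 (gene ID 14245, chr12:16535669-16653903), a phosphatidate phosphatase and nuclear coactivator of fatty acid oxidation, induced in fasted liver, was lowest with both treatments. Its RefSeq window holds the TGTTCT arm, in capitals at position -163, and no complete element. The minus strand of chr12:16610917-16611216 is printed because Lpin1 gave the lowest p of any member.
Lpin1 promoter: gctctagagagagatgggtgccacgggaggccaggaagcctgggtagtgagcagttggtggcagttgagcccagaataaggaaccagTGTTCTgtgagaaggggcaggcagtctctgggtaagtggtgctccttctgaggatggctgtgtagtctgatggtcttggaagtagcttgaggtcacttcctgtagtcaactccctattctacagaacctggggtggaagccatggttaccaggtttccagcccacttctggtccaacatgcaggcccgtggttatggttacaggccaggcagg

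Lpin1 read 19.5, 64.3 and 20.4 FPKM in control, 18.5, 22.2 and 20.2 with busulfan, 20.8, 11.6 and 25.3 with L.J., and 4.75, 8.43 and 6.98 with both. The 3 combined libraries lay below all 9 others. Control replicate 2 stood far above every other library, so the control mean of 34.8 ± 25.6 FPKM rests on it. The other means were 20.3 ± 1.85 with busulfan, 19.2 ± 6.98 with L.J. and 6.72 ± 1.85 with both (SD, n = 3), and busulfan and L.J. did not differ beyond their spread.

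Both treatments against control gave Lpin1 a log2 fold change of -2.02 (SE 0.40, unadjusted p 0.000323, adjusted p 0.211, limma), rank 16 among all genes tested. Without control replicate 2 it was -1.47. Against busulfan it was -1.49 (SE 0.40, adjusted p 0.7475), and against L.J. -1.35 (SE 0.40, adjusted p 0.222). The last passed without L.J. replicate 2, at -1.66 (adjusted p 0.0305), among 1163 genes. Lpin1 overlaps the protein-coding gene Ntsr2. Fkbp5, Sgk1, Klf9 and Errfi1 overlap non-coding genes, and Sgk1 also a pseudogene. Whether reads were counted by strand is not stated, so reads of overlapping genes cannot be separated from those of these members.

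Klf9 (gene ID 16601, chr19:23141226-23168129), a Krüppel-like transcription factor that responds quickly to glucocorticoids and carries their daily rhythm, had a smaller range. It read 23.8, 26.6 and 21.4 FPKM in control, 28.9, 23.5 and 25.2 with busulfan, 22.5, 15.04 and 24.4 with L.J., and 15.7, 16.2 and 18.1 with both. The combined group lay below all control and all busulfan libraries, and L.J. replicate 2 was the lowest of all 12. Means were 23.9 ± 2.60, 25.8 ± 2.75, 20.7 ± 4.95 and 16.7 ± 1.27 FPKM (SD, n = 3), and control, busulfan and L.J. did not differ beyond their spread.

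The log2 fold change of Klf9 was -0.60 (SE 0.17, adjusted p 0.808, limma) for both treatments against busulfan and -0.49 (SE 0.17, adjusted p 0.588) against control. Averaged over mice with and without busulfan, the L.J. effect was -0.41 (SE 0.12, adjusted p 0.115). That average passed narrowly once the libraries were scaled to a common median (-0.50, adjusted p 0.0449) or quantile normalized (-0.49, adjusted p 0.0493). Klf9 was the 1 member past the threshold in limma under these scalings.

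**Figure D2:**
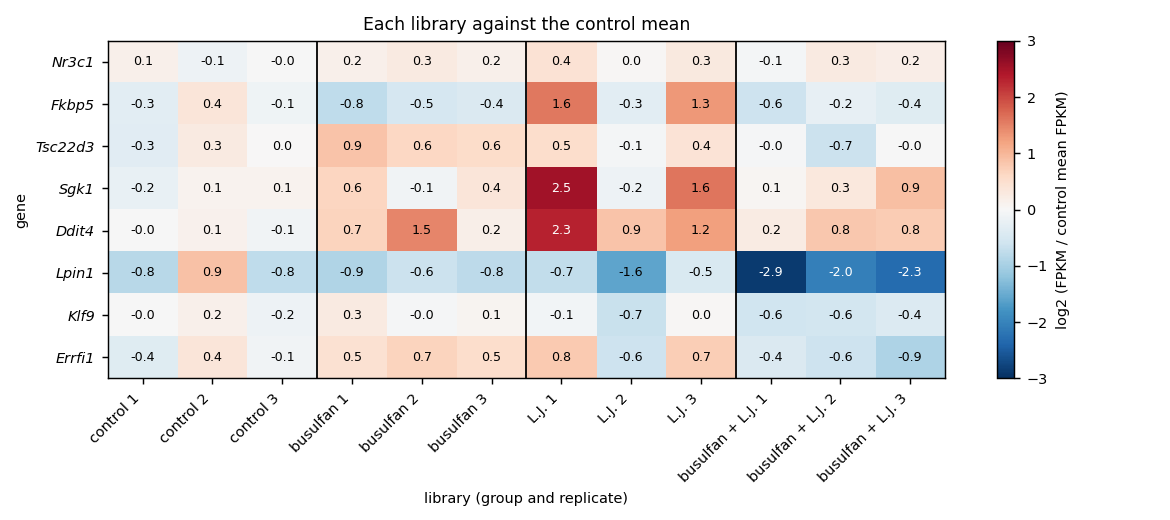
Log2 ratio of each library's FPKM to the control mean (colour and printed value, no pseudocount), genes in rows and the 12 libraries in columns by group. Fkbp5, Sgk1 and Ddit4 are red in L.J. replicates 1 and 3, Tsc22d3 and Errfi1 are pale red across the busulfan group, and Lpin1 is dark blue with busulfan plus L.J.

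Busulfan against control asks what busulfan alone does to the liver. None of the 8 members passed in limma, beside 0% of all genes tested, and 1 member, Tsc22d3, had an unadjusted p under 0.05, beside 1.29% of all genes. In 5 members the 3 busulfan libraries did not overlap the 3 control libraries, beside 5.92% of all genes. Nr3c1, Tsc22d3, Ddit4 and Errfi1 were higher, beside 4.56%, and Fkbp5 was lower, beside 1.36%. The receptor's co-chaperone target and the other non-overlapping targets thus lay on opposite sides of control. The median log2 fold change of the members was 0.23 (0.16 to 0.25 with each library left out in turn), beside 0.04 over all genes tested.

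Busulfan with L.J. against busulfan alone asks what L.J. does in treated mice. None of the 8 members passed, beside 0% of all genes, and 4 had an unadjusted p under 0.05, beside 3.73%. The same 4, Tsc22d3, Lpin1, Klf9 and Errfi1, lay lower in every combined library than in every busulfan library, beside 5% of all genes that were lower without overlap. Nr3c1, Fkbp5, Sgk1 and Ddit4 overlapped. The member median was -0.37 (-0.50 to -0.29 with each library left out), beside 0.00 over all genes. With library weights, whose estimation stopped short of its tolerance, Tsc22d3, Klf9 and Errfi1 passed among 70 genes.

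L.J. against control asks what L.J. does alone. None of the 8 passed, beside 0.25% of all genes (27 genes), and Fkbp5, Sgk1 and Ddit4 had an unadjusted p under 0.05, beside 23.2%. Ddit4 was the 1 member without overlap, higher, beside 17.9% of all genes. The member median was 0.32, from 0.18 without L.J. replicate 1 to 0.64 without L.J. replicate 2, beside 0.17 over all genes. It was 0.14 with median scaling and turned to -0.18 without both divergent L.J. libraries. Median scaling moved the median of all genes by -0.18 here, by 0.14 for both treatments against L.J. and by 0.19 in the interaction. Leaving out L.J. replicate 2, 1796 genes passed, among them Fkbp5, Sgk1, Ddit4 and Errfi1.

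Both treatments against L.J. asks what busulfan does in mice given L.J. None of the 8 passed, beside 0.0278% of all genes (3 genes), and 5 had an unadjusted p under 0.05, beside 13.6%. Ddit4 and Lpin1 were lower without overlap, beside 9.99% of all genes. All 8 fitted values were negative, beside 74.7% of all genes, but with median scaling or quantile normalization Nr3c1 turned positive and 7 stayed negative. The member median was -0.78 (-1.20 without L.J. replicate 2, -0.38 without L.J. replicate 1, -0.063 without both divergent L.J. libraries), beside -0.13 over all genes. Without L.J. replicate 2, Fkbp5, Sgk1, Lpin1, Klf9 (-0.47, adjusted p 0.0497, against -0.27 and 0.488 with all libraries) and Errfi1 passed among 1163 genes.

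Both treatments against control gave no member past the threshold, beside 0% of all genes, with Lpin1 and Klf9 at an unadjusted p under 0.05, beside 6.93%. Lpin1, Klf9 and Errfi1 were lower without overlap, beside 3.76% of all genes, and Ddit4 was higher without overlap, beside 8.05%. The member median was -0.27 (-0.41 without control replicate 1, -0.12 without control replicate 2), beside 0.04 over all genes.

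**Figure D3:**
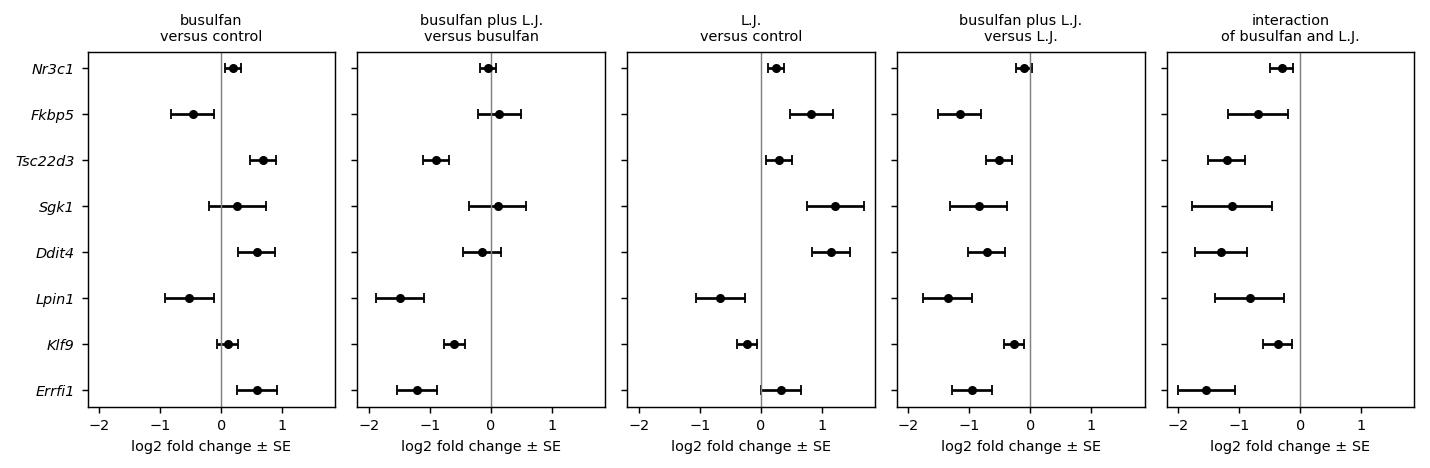
Fitted log2 fold change ± SE (horizontal axis, limma on log2(FPKM + 1)) of each gene in 4 comparisons and in the interaction. Tsc22d3, Lpin1, Klf9 and Errfi1 lie left of 0 for busulfan plus L.J. against busulfan, and all 8 genes lie left of 0 in the interaction. No value passed the adjusted threshold of 0.05.

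The interaction, the busulfan effect with L.J. minus the busulfan effect without it, tests whether the treatments add up on the log2 scale. It was -1.21 (SE 0.30, adjusted p 0.709, limma) for Tsc22d3, -1.30 (SE 0.43, adjusted p 0.709) for Ddit4 and -1.54 (SE 0.47, adjusted p 0.709) for Errfi1. For Fkbp5 it was -0.69 (SE 0.50, adjusted p 0.716) and for Sgk1 -1.11 (SE 0.66, adjusted p 0.711). None of the 8 members passed, beside 0% of all genes, and Tsc22d3, Ddit4 and Errfi1 had an unadjusted p under 0.05, beside 6.54%. All 8 values were negative, beside 77.6% of all genes tested, and they were also negative with median scaling and quantile normalization. The median was -0.97 (-1.30 without L.J. replicate 2, -0.65 without L.J. replicate 1 and -0.15 without both divergent L.J. libraries), beside -0.17 over all genes. Without L.J. replicate 2, Fkbp5 (-1.23, adjusted p 0.0269), Tsc22d3 (-1.38, adjusted p 0.0316), Sgk1 (-1.78, adjusted p 0.0350) and Errfi1 (-2.0, adjusted p 0.00580) passed, beside 295 genes in all.

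Averaged over both backgrounds, the L.J. effect passed for 0 of 8 members, beside 0.38% of all genes (41 genes), and 3 members had an unadjusted p under 0.05, beside 18.4%. It was -1.08 (SE 0.28, adjusted p 0.0998, limma) for Lpin1, and 0.50 (SE 0.22, adjusted p 0.246) for Ddit4. The averaged busulfan effect passed for 0 of 8 members, beside 0% of all genes, with Fkbp5 at -0.82 (SE 0.25, adjusted p 0.694) and Lpin1 at -0.94 (SE 0.28, adjusted p 0.694) under an unadjusted 0.05, beside 6.58%. Without L.J. replicate 2, the averaged L.J. effect passed for Fkbp5 at 0.75 and Sgk1 at 1.00 (0.48 and 0.67 with all libraries), among 886 genes. The averaged busulfan effect then passed for Fkbp5 at -1.08 (adjusted p 0.00178, limma), among 330 genes. Without both divergent L.J. libraries, which leaves a lone L.J. library, the averaged busulfan effect of Fkbp5 was -0.28. Leaving out control replicate 2, the high Lpin1 library, the averaged Lpin1 effects were -0.80 for L.J. and -0.67 for busulfan.

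An exact two-sided permutation test of these averages, with treatments exchanged within each background over 400 arrangements, can reach a smallest p of 0.005. It gave 0.01 for Fkbp5 under busulfan, 0.025 for Klf9 under L.J., and 0.03 for Lpin1 under both. Adjusted over the 16 tests these were all 0.12, and none passed.

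The members were set against each other over the 12 libraries, and the pairs described were picked after their values were seen. Of 28 pairs, 26 had a positive Pearson r on log2(FPKM + 1), and 9 passed at 0.05 by permutation with adjustment over the pairs, 3 by Spearman. Libraries of a group share their treatment, and r of deviations from the group means is given beside it.

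Sgk1 ran with Fkbp5 and with Ddit4 through the divergent L.J. libraries. Fkbp5 and Sgk1 had r = 0.82 (permutation p 0.00945, adjusted 0.0452) and rho = 0.33 (permutation p 0.299, adjusted 0.523). Without L.J. replicates 1 and 3, which are also the 2 libraries farthest from the median of Fkbp5, r was -0.23, and for deviations it was 0.86. Sgk1 and Ddit4 had r = 0.74 (permutation p 0.0119, adjusted 0.0452) and rho = 0.38 (permutation p 0.218, adjusted 0.469), with r = 0.08 without the same libraries and 0.56 for deviations. Both relations rest on those libraries. The remaining pair, Fkbp5 and Ddit4, did not pass, at r = 0.62 (permutation p 0.0386, adjusted 0.108) and rho = 0.17 (permutation p 0.590, adjusted 0.677), with 0.60 for deviations, and Ddit4 in busulfan replicate 2 (5.88 FPKM) lay above L.J. replicate 3 (4.96 FPKM).

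The 6 pairs among Tsc22d3, Errfi1, Klf9 and Lpin1 had an r of 0.43 to 0.82 without L.J. replicates 1 and 3. Tsc22d3 and Errfi1 had r = 0.82 (permutation p 0.00138, adjusted 0.0154) and rho = 0.77 (permutation p 0.00482, adjusted 0.0475). Their r was 0.82 without L.J. replicates 1 and 3, 0.87 without the 2 libraries farthest from the median of Tsc22d3, and 0.61 for deviations from the group means. Lpin1 and Klf9 had r = 0.79 (permutation p 0.00147, adjusted 0.0154) and rho = 0.62 (permutation p 0.0355, adjusted 0.166), with 0.78 without the L.J. libraries, 0.77 without the farthest libraries and 0.63 for deviations. These 4 genes were not all related alike, as Tsc22d3 and Lpin1 had r = 0.46 (permutation p 0.129, adjusted 0.301) and rho = 0.52 (permutation p 0.0852, adjusted 0.265), with 0.41 for deviations.

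Deviations from the group means joined genes across these sets. The highest r of deviations of the 28 pairs was 0.91, for Fkbp5 and Errfi1, whose r over the 12 libraries was 0.50 (permutation p 0.102, adjusted 0.260) with rho = 0.26 (permutation p 0.420, adjusted 0.653). It was 0.82 for Sgk1 and Klf9, 0.79 for Fkbp5 and Klf9 and 0.72 for Fkbp5 and Lpin1, above the 0.60 of Fkbp5 and Ddit4. These deviations include the spread among the L.J. libraries. Without L.J. replicates 1 and 3, the plain r was -0.028 for Fkbp5 and Errfi1 and 0.11 for Sgk1 and Klf9. It was then 0.091 for Fkbp5 and Klf9 and 0.61 for Fkbp5 and Lpin1.

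The receptor gene ran with Ddit4 at r = 0.79 (permutation p 0.00165, adjusted 0.0154) and rho = 0.79 (permutation p 0.00352, adjusted 0.0475), with r = 0.68 without the 2 libraries farthest from the median of Nr3c1, 0.63 without L.J. replicates 1 and 3 and 0.69 for deviations. With Sgk1 it passed by Pearson, at r = 0.67 (permutation p 0.0145, adjusted 0.0452) and rho = 0.59 (permutation p 0.0483, adjusted 0.193), but r was 0.48 without the 2 farthest libraries, 0.29 without L.J. replicates 1 and 3 and 0.59 for deviations. With Tsc22d3 it had r = 0.20 (permutation p 0.532, adjusted 0.684) and rho = 0.33 (permutation p 0.299, adjusted 0.523), with -0.14 for deviations. Over 10 libraries, without L.J. replicates 1 and 3, no pair passed by Pearson, though 7 pairs had r above 0.5.

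**Figure D4:**
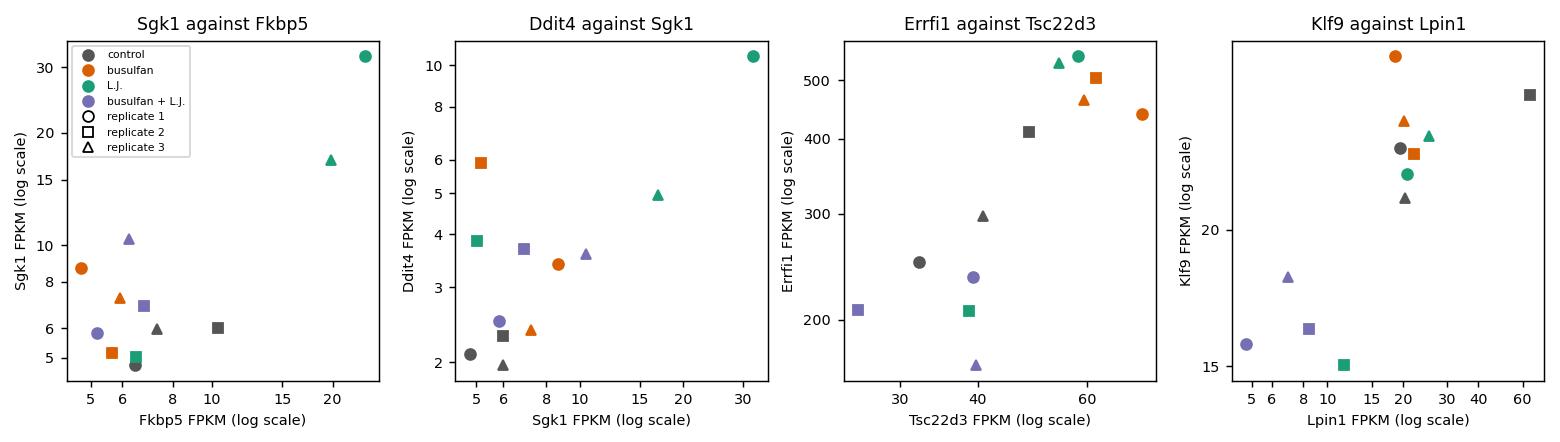
FPKM of 4 pairs of genes in the 12 libraries, both axes on a log scale, with colour for the group and shape for the replicate. In the plots of Sgk1 against Fkbp5 and Ddit4 against Sgk1 the upper right corner holds L.J. replicates 1 and 3, whereas Errfi1 against Tsc22d3 and Klf9 against Lpin1 spread along the diagonal with the combined group at the lower left.

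Genes outside the list with the pattern most like Fkbp5 over the 12 libraries were Pbxip1 (r = 0.987), Epas1 (r = 0.972), Por (r = 0.971), Gadd45b (r = 0.966) and Nfia (r = 0.961). They share the high divergent L.J. libraries: Por, the electron donor of microsomal cytochrome P450 enzymes, was at 139, 35.2 and 104 FPKM in the L.J. libraries, replicate 1 to 3, against 26.3 to 49.8 FPKM in the other groups. Without those libraries their r was 0.759 to 0.902. The genes most like Tsc22d3 were Mndal (r = 0.8535), Rasgef1b (r = 0.846), Zfp281 (r = 0.813), Yod1 (r = 0.807) and Zfp938 (r = 0.799), and without the divergent libraries their r was 0.787 to 0.910. They were picked as the highest r among all genes tested, so no test is given.

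Other glucocorticoid-responsive liver genes were taken as a list of 30, of which 29 were tested and Hif3a was too low. In L.J. against control 1 fell in limma, beside 0.25% of all genes: Angptl4, an inhibitor of lipoprotein lipase, at -1.81 (SE 0.27, adjusted p 0.0183). Averaged over backgrounds, Angptl4 fell by 1.82 (adjusted p 0.00349) and Pik3r1, a regulatory subunit of phosphoinositide 3-kinase, rose by 0.57 (adjusted p 0.0328) with L.J. Angptl4 read 37.1, 59.98 and 33.9 FPKM in control, 8.92, 12.9 and 12.6 with L.J., and 10.8, 9.37 and 11.9 with both, so L.J. replicate 2 went with its group here. None of the 29 passed in the other 6 comparisons.

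In both treatments against busulfan the list had a median of -0.36, beside 0.00 over all genes. Of the 29, 20 were lower, beside 49.3% of all genes, and 11 were lower without overlap, beside 5%. Nfkbia, the NF-kappaB inhibitor, was at -0.89 (SE 0.24, adjusted p 0.7475, limma), and Pck1, the cytosolic enzyme that starts gluconeogenesis, at -1.50 (SE 0.48, adjusted p 1.00). Pck1 read 778, 514 and 682 FPKM with busulfan and 239, 214 and 235 with both. In the interaction the median was -0.83 with 24 of 29 negative, beside -0.17 and 77.6% over all genes. In busulfan against control the median was 0.19, beside 0.04 over all genes. G6pc, the glucose-6-phosphatase, was at 0.70 (SE 0.21, unadjusted p 0.00616, adjusted p 1).

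Metallothioneins stood high in the divergent L.J. libraries. Mt1, a metal-binding protein gene induced by glucocorticoids, metals and inflammation, was at 2466, 97.9 and 1343 FPKM in the L.J. libraries, replicate 1 to 3, 15 to 29.8 FPKM in control and 7.5 to 74.1 FPKM with both. Its log2 fold change against control was 4.91 (SE 1.01, adjusted p 0.0532, limma). Per1, a clock gene and receptor target, read 14.5, 6.04 and 21.4 FPKM with L.J. and 1.44, 1.5 and 2.87 with both, at -2.23 (SE 0.55, adjusted p 0.184).

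**Figure D5:**
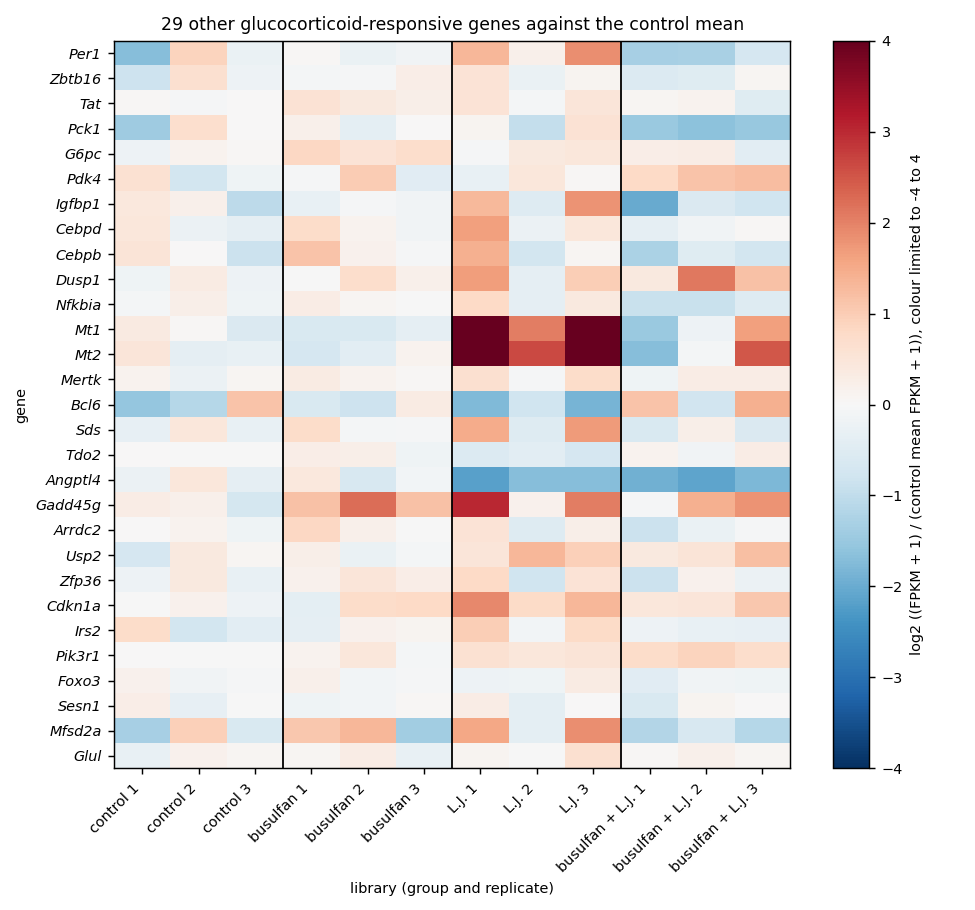
Log2 ratio of (FPKM + 1) to the control mean plus 1 (colour, limited to the range -4 to 4) for the 29 other glucocorticoid-responsive genes tested, in rows, over the 12 libraries, in columns. Mt1 and Mt2 reach the colour limit in L.J. replicates 1 and 3, and Angptl4 is blue in all 6 libraries with L.J.

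Receptor chaperones and cofactors, 18 of 18 tested, gave 0 passes in every comparison, with median log2 fold changes of 0.10 for busulfan and 0.25 for L.J. against control, beside 0.04 and 0.17 over all genes. Fkbp4, the co-chaperone that assists receptor transport and opposes Fkbp5, read 41.4 to 56.2 FPKM in control and 67.7 to 86.1 FPKM with both, at 0.72 (SE 0.17, adjusted p 0.265, limma). Of 7 genes for hormone activation, transport and clearance, 6 were tested and none passed. Hsd11b2, which inactivates corticosterone, was listed at 0 to 0.03 FPKM. Srd5a1, a steroid 5-alpha-reductase, was at 8.49, 23.8 and 5.11 FPKM in the L.J. libraries, replicate 1 to 3, against 28.6 to 33.8 FPKM in control, at -1.49 (SE 0.37, adjusted p 0.0753). Adrenal cortex markers (4 genes) summed to 1.46 to 3.90 FPKM in all libraries, with Cyp11b1 at 0 in 11 of 12.

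Clock genes were read beside the members, since the time of sampling is not in the labels. Of 14, 12 were tested, and 1 passed, in 1 of the 8 comparisons: Per2 rose with L.J. averaged over backgrounds, by 1.01 (SE 0.17, adjusted p 0.0366, limma), beside 0.38% of all genes. Nr1d1, a repressor of the clock with a steep daily rhythm, read 14.1, 85.55 and 73.9 FPKM in control, 49.97, 15.2 and 13.8 with busulfan, 12.6, 5.21 and 42.5 with L.J., and 3.64, 3.25 and 3.50 with both. Its value for both treatments against control was -3.37 (SE 0.76, adjusted p 0.250). The combined group, in which Lpin1, Klf9 and Errfi1 were lowest, was thus also the lowest for Nr1d1, and the part of sampling time in those values was not tested.

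Other cell types and stress were read beside the members in the same way. Immediate early genes (10, of which 7 tested, none passed) summed to 82.5, 24.5 and 54.8 FPKM in L.J. replicates 1, 2 and 3, and to 23.1 to 56.3 FPKM elsewhere. Of 7 neutrophil markers 3 were tested, and S100a8 read 48.8, 1.73 and 25.1 FPKM in the L.J. libraries and 0.16 to 3.35 FPKM elsewhere. Summed Kupffer cell markers (10 genes) were 392, 177 and 328 FPKM in the L.J. libraries, 116 to 237 in control, 161 to 247 with busulfan and 142 to 339.6 with both. Among the L.J. libraries these values were higher in replicates 1 and 3, as were Fkbp5 and Sgk1. Replicate 3 of the combined group exceeded L.J. replicate 3 in the immediate early sum (56.3 against 54.8 FPKM) and the Kupffer sum (339.6 against 328). For S100a8 it read 3.35 against 25.1 FPKM. In that combined library Fkbp5 was at 6.25 and Sgk1 at 10.4 FPKM. The part of these genes in the members' levels was not tested.

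Summed endothelial markers were 66.4 to 132 FPKM, stellate markers 60.5 to 158, cholangiocyte markers 11.2 to 30.2, lymphocyte markers 2.52 to 6.85 and erythroid markers 282.5 to 1528 FPKM over the 12 libraries. The 1 marker past the threshold was Sox9, a cholangiocyte and progenitor factor, which rose by 0.87 with L.J. averaged over backgrounds (adjusted p 0.0345, limma). Of the 6 cholangiocyte markers 2 were tested, and the rest did not reach the filter. Spp1, also tested, had overlapping groups, with means of 12.5, 15.7, 17.1 and 15.8 FPKM in control, busulfan, L.J. and both. A rise of Sox9 alone is thus not a rise of the list. Erythroid Alas2, the first enzyme of haem synthesis in red cells, read 13.4, 76.1 and 7.29 FPKM in L.J. replicates 1 to 3. It read 57.9 to 105.6 FPKM elsewhere, so the divergent libraries were the lowest for this gene. The erythroid list as a whole did not follow it. Its sums were 349, 968 and 670 FPKM in L.J. replicates 1 to 3, within the range of the other libraries. Pancreatic acinar markers reached 309.9 FPKM in replicate 2 of the combined group and 2.09 to 32.8 FPKM elsewhere, and adipocyte markers stayed at or under 0.23 FPKM. In that library Klf9 and Errfi1 lay between the other combined libraries, and Tsc22d3 was the lowest of the 12.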

How the data were processed

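The deposited values, made by the authors, are FPKM of 21004 genes in a single table, rounded to the second decimal. Reads were aligned with Bowtie 0.12.2 to mm10, per the submitters' processing notes, while the quantifier, its annotation and its use of strand are not stated there. FPKM hold no counts, so the depth of each library is unknown and no interval for counting error can be given; sums per library ran from 514647 to 665060. Libraries were grouped by their descriptions and replicate numbers by their titles.

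The 10786 genes that reached 1 FPKM in 3 libraries or more were tested on log2(FPKM + 1), so folds of low genes are understated. A model with 4 group means over 12 libraries was fitted with limma 3.58.1 in R 4.3.3 (8 residual degrees of freedom, eBayes with a mean-variance trend), and 8 two-sided comparisons were adjusted by Benjamini-Hochberg over all genes tested, threshold 0.05. The averages over backgrounds had an exact permutation test as well, while 3 against 3 libraries cannot go below 0.1 and got none. Correlations had 100000 permutations. The fitting code was tested on simulated data.

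The members and lists were chosen with earlier results of these data known. A fold change is given for a member whose unadjusted p was under 0.05 or whose groups did not overlap, and, added after the values were seen, for one that passed with a library left out. Of each list up to 4 genes with the smallest p in a comparison are named, and the 5 genes most like Fkbp5 and Tsc22d3. Hsd11b2, Cyp11b1 and Hif3a were named after their values were seen. Of the marker list for hepatocytes, 6 of 7 symbols were in the table. Gene positions and promoter windows are from RefSeq on GRCm38.p6; 7 of 8 members had windows.

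Deviations of same-numbered control and busulfan libraries from their group means correlated at 0.399, 0.157 and 0.110. No other pair of groups had all 3 correlations over 0.1 (busulfan and L.J. came nearest, at 0.283, 0.117 and 0.0524). Libraries of unlike number were not compared, so these values cannot show a pairing, and the labels state none. Alternatives were 2 other pseudocounts (0.1 and 0.01), no filter, a filter of 5 FPKM, median scaling, quantile normalization, eBayes without trend, robust eBayes, a replicate block, only the groups compared, library weights, and leaving out libraries.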

Additional observations from a re-analysis of the deposited data

Results flagged for a closer look

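Ddit4 stood out because its busulfan effect had opposite signs without and with L.J., with no overlap of libraries in either case. All 3 busulfan libraries (2.38 to 5.88 FPKM) lay above all 3 control libraries (1.97 to 2.31 FPKM), and all 3 libraries with both treatments (2.5 to 3.69 FPKM) lay below all 3 with L.J. alone (3.86 to 10.5 FPKM). The difference between these effects was -1.30 on the log2 scale (SE 0.43) and did not pass in limma, at an adjusted p of 0.709. It was -0.93 without L.J. replicate 1 and -1.56 without L.J. replicate 2. That pattern of opposite, non-overlapping groups was not itself tested.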

How the results depend on the processing

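No member passed the threshold in limma under other pseudocounts, no filter, a filter of 5 FPKM, eBayes without trend, robust eBayes, the compared groups alone, the replicate block, or without both divergent L.J. libraries. Of 682 alternative values of the 29 member fold changes with an unadjusted p under 0.05 or groups without overlap, 650 kept their direction and their side of the threshold, 30 newly passed and 2 reversed. The reversed values were those of Fkbp5 (-0.25) and Sgk1 (-0.12) for L.J. against control without L.J. replicates 1 and 3. The cause was not tested. Tsc22d3 and Errfi1 for L.J. against control are not among the 29. In L.J. replicate 2 they read 38.7 and 207 FPKM, below their control means of 40.4 and 319.6 FPKM. Depth is unknown, so it cannot be said how far counting error limits Ddit4, the member with the lowest FPKM.

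With the replicate block, 1 gene passed in both treatments against L.J. in place of 3, and the block changed no call of a member. Without a filter the genes past the threshold numbered 1 in both against busulfan, 11 in L.J. against control, 1 in both against control and 11 for the averaged L.J. effect. With a filter of 5 FPKM the last was 63, and the member median in both against busulfan was -0.60, over fewer members. Median scaling gave 70, 1 and 113 genes for L.J. against control, both against L.J. and the averaged L.J. effect, quantile normalization 63, 1 and 125, and each called 1 member, Klf9, in the average. Under median scaling 2 exact tests of an average passed. The compared groups alone gave 1 gene for busulfan against control, 0 for L.J. against control and 4 for both against control.

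Without L.J. replicates 1 and 3 together, genes past the threshold were 1 in L.J. against control, 0 in both against L.J., 3 in both against control and 11 for the averaged L.J. effect. Member medians were then -0.18 for L.J. against control, -0.063 for both against L.J., -0.15 for the interaction and 0.17 for the averaged busulfan effect, and 0 pairs of members passed as correlated.

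Library weights, whose estimation stopped short of its tolerance, gave L.J. replicate 2 the lowest weight (0.25). They called 1 gene and 0 members in busulfan against control, 70 and 3 in both against busulfan, 4250 and 5 in L.J. against control, 2600 and 6 in both against L.J., 729 and 2 in both against control, 862 and 4 in the interaction, 3602 and 6 for the averaged L.J. effect and 736 and 2 for the averaged busulfan effect.

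Leaving out each library in turn, genes past the threshold ran from 0 to 1 in busulfan against control, 1 to 1796 in L.J. against control, 0 to 1163 in both against L.J., 0 to 6 in both against control, 0 to 295 in the interaction, 4 to 886 for the averaged L.J. effect and 0 to 330 for the averaged busulfan effect. Members past it ran from 0 to 4, 0 to 5, 0 to 4, 0 to 2 and 0 to 1 in L.J. against control, both against L.J., the interaction and the averaged L.J. and busulfan effects, each highest without L.J. replicate 2. Member medians ran from -0.50 to -0.29 in both against busulfan, -1.20 to -0.38 in both against L.J. and -1.30 to -0.65 in the interaction.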
